A study of Mus musculus with 4 samples.

Results

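Both arrays of thymic T cells were set against both arrays of spleen-derived T cells, and these 4 arrays are all 4 of the series. The thymic arrays hold CD4+CD62L+ thymocytes of CIITAtg mice, sorted as CXCR3+ (nTh1, natural Th1) or CXCR3- (TT naive), CXCR3 being a chemokine receptor of Th1 cells. The spleen-derived arrays hold CD4+CD62Lhi T cells of wild-type mice, taken directly (naive) or put in culture for 5 days (cTh1, classical Th1). The culture held beads that engage CD3 and CD28, 2 ng/ml of IL-12, 50 U/ml of IL-2 and a blocking antibody to IL-4. All mice were 8 weeks old and on the C57BL/6 background, and every array received 300 ng of total RNA. Tissue and transgene coincide in this design and cannot be told apart. The labels do not name the promoter of the transgene or the number of mice behind an array. Culture is present in cTh1 only, so the spleen-derived pair differs in activation as well.

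The arrays of a tissue are different populations and not replicates, so the comparison has no p-value and every difference is given as a size. A gene was called split when both thymic values lay above, or both below, both spleen-derived values. The mean difference is the mean of the thymic log2 values minus the mean of the spleen-derived ones. The gap is the log2 distance between the nearest thymic and spleen-derived values, so a gap of 1 means that each thymic array was at least 2-fold from each spleen-derived array. Values are log2 RMA intensities, and levels are not compared between genes. Where a pair of values stands against another pair, the order is the array labelled naive and cTh1, then TT naive and nTh1. In bulk RNA, fewer cells of a type and less RNA per cell cannot be told apart.

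Thymic CD4 T cells have left positive selection and prepare to leave for the blood, while splenic CD4 T cells have already circulated. CIITA is the coactivator that switches on MHC class II genes, and in transgenic mice that carry it on thymocytes, CD4 T cells can be selected by other thymocytes. T cells selected in that way often carry PLZF, encoded by Zbtb16, and make cytokines early. Culture with receptor stimulation, IL-12 and IL-2 drives division, aerobic glycolysis and the T-bet programme of Th1 cells.

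One array went against its label. Its label says wild-type, unstimulated naive cells, yet Zbtb16 was at 12.23 there, while cTh1 had 7.31, TT naive 9.36 and nTh1 9.88. This array labelled naive also had Tbx21 at 9.81 and MHC class II transcripts close to those of both transgenic arrays. Cxcr3, the gene of the thymic sort marker, was at 9.80 there and 10.53 in cTh1, against 7.76 in TT naive and 9.91 in nTh1. Y-linked Eif2s3y was at 8.61 and 4.97 against 8.55 and 5.16, so the split between tissues does not follow the Y-linked transcripts. Gene groups are therefore also given against each spleen-derived array alone. That single-array rule is looser, and it put 0.944% of all genes at 2-fold thymic higher and 2.92% lower against the array labelled naive, and 2.67% and 7.12% against cTh1. Cd4 lay between 12.33 and 12.72 on all 4 arrays. Markers of other cells differed between arrays of the same tissue. The mean log2 level of the B cell markers was 6.73 and 8.625 against 6.76 and 7.31, and 0 of 13 were split. For myeloid markers it was 6.87 and 6.77 against 6.31 and 7.54, with 1 of 18 split and thymic lower. For the CD8 list it was 8.88 and 9.745 against 8.21 and 8.89, with 2 of 8 thymic lower. For NK markers it was 7.53 and 7.45 against 6.53 and 7.43, with 2 of 6 thymic lower. RMA values hold no 0, and the part of other cells in the results was not tested. Thymic epithelial markers had 0 of 10 thymic higher and 3 thymic lower. These marker counts are read beside the shares over all genes, 29.1% thymic lower and 17.7% thymic higher.

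The thymic arrays were lower than both spleen-derived arrays in 33 of 41 cell cycle genes, 21 of 33 glycolysis and hypoxia genes, 14 of 26 memory-type genes and 11 of 23 Th1 genes, and the differences above 2-fold ran mostly that way. Of 13238 genes above the level filter, 3857 were split with the thymic arrays lower (29.1% of these genes) and 2337 with them higher (17.7%). At a mean difference of 2-fold or more, 419 split genes were thymic lower (3.17%) and 124 thymic higher (0.937%). With a gap of 2-fold or more, 107 were thymic lower (0.808%) and 32 thymic higher (0.242%). The lower share of all split genes was 62.3%, but it was 81.7% with the arrays centred on the median of all probe sets and 31.9% with them centred on the median of named genes, so the balance of small differences depended on scaling. The median of all probe sets was higher on the thymic arrays by 0.126, while the median mean difference of the named genes was -0.07, and list medians below are read beside that value. The counts of large gaps kept more thymic lower than thymic higher genes under either centring, 152 against 22 in the former case and 65 against 56 in the latter. The median differences within a tissue were of like size, but they compare single arrays, while the tissue difference compares means of 2 arrays. The median absolute difference was 0.222 between tissue means, 0.175 between the thymic arrays and 0.258 between the spleen-derived arrays. In 178 of the 419 thymic lower genes and 72 of the 124 thymic higher ones, the gap was larger than both differences within a tissue. Where a gene had several probe sets above the filter, their mean differences had an SD of 0.319 (506 genes), which covers probe and isoform differences only.

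Just at the edge of the rule, Prr5 had a mean difference of -1.07 and a gap of 0.01 and was split, and Map3k8 had a mean difference of -1.41 and overlapped by -0.01. A large mean difference could come from a single array. The interferon-induced gene Ifitm1 stood at 5.96 and 10.38 against 6.15 and 5.81, and Cd8a at 6.31 and 10.31 against 6.22 and 6.42. The heat shock gene Hspa1b had the thymic mean higher without a split, with 9.19 and 6.44 on the spleen-derived arrays and 10.83 and 8.58 in TT naive and nTh1. Il12rb2, whose product pairs with the Il12rb1 chain, was at 8.83 and 12.10 against 6.69 and 8.93, so the tissues overlapped despite a mean difference of -2.66.

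The genes with the largest thymic lower gaps include chemokine and cytokine receptors, and 67 of the 107 with a gap of 2-fold or more lay in none of the gene lists. Cxcr6, a chemokine receptor of tissue-homing T cells, was at 10.56 and 11.47 on the spleen-derived arrays and at 7.78 and 8.19 on the thymic ones. Its gap of 2.37 was the largest among the named genes. S100a6, a calcium-binding protein of memory T cells, was at 9.95 and 9.98 on the spleen-derived arrays and at 7.87 in TT naive and 6.77 in nTh1. The spleen-derived values of S100a6 were nearly equal, and the same held for Ccr2, the receptor for CCL2, with 9.79 and 9.74 against 7.11 in TT naive and 7.76 in nTh1. Csf1, a growth factor of macrophages, was at 10.12 and 10.36 against 8.17 and 7.57. In Cxcr6, Tbx21 and Plac8 the cTh1 array was the farther of the spleen-derived pair. That the array labelled naive exceeded both thymic arrays in all 3 follows from the split rule. Gzmb, the protease granzyme B, had the largest mean difference of these genes, -4.24, with values of 7.61 and 12.50 against 5.59 and 6.02 and a gap of 1.58. Klrk1, which encodes the activating receptor NKG2D, was at 8.00 and 8.65 against 5.15 and 6.24. Gabarapl1, an autophagy protein, was at 9.05 and 10.13 against 7.38 and 7.34.

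**Figure D1:**
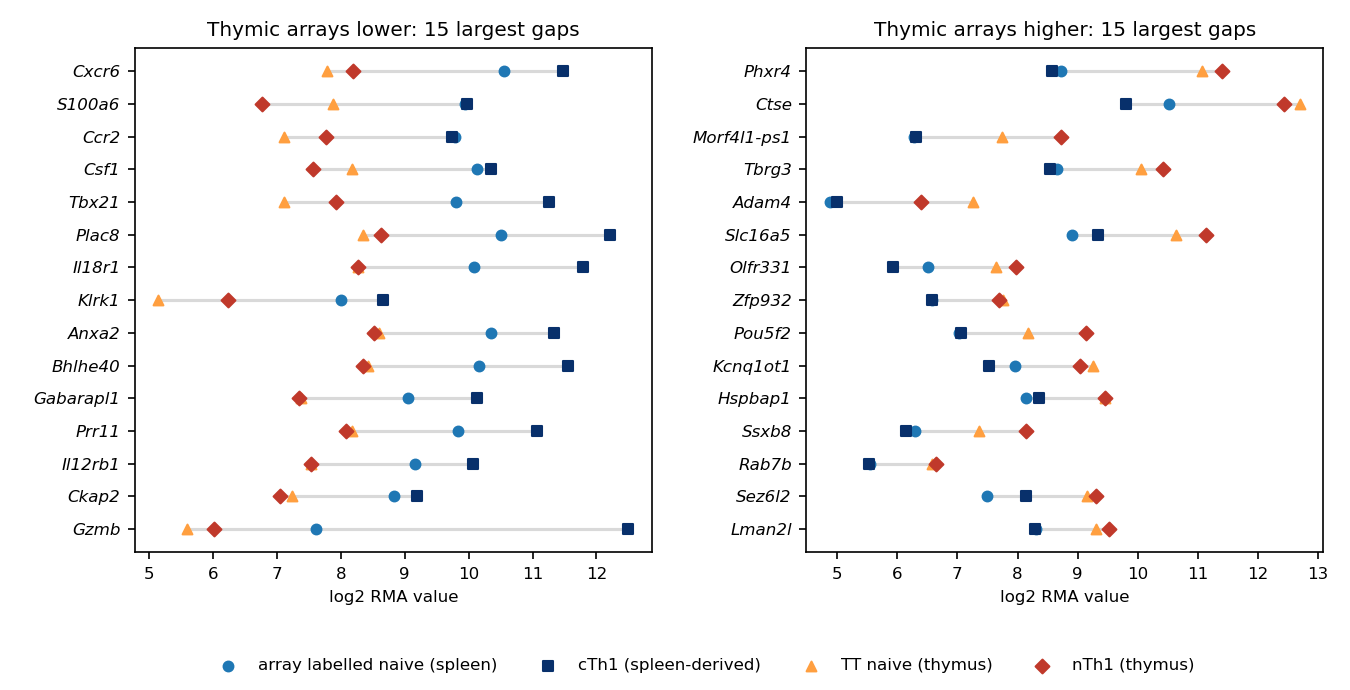
The log2 RMA value of each of the 15 genes with the largest gap in each direction, small RNA and predicted genes left out, is plotted for the 4 arrays, each point being 1 array and the grey line the range. Both thymic arrays stand to 1 side of both spleen-derived arrays in each gene, with Cxcr6 (gap 2.37) and Phxr4 (gap 2.35) at the top.

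Genes of dividing cells had the highest share of thymic lower members of the 54 gene lists. Of 41 cell cycle genes, all above the level filter, 33 were split with the thymic arrays lower and 0 with them higher, where 29.1% of all genes were thymic lower. The list median was -1.09, 23 members were at 2-fold or more and 14 had a gap of 2-fold or more. Against the array labelled naive alone 23 of 41 were at least 2-fold thymic lower (2.92% of all genes), with a median of -1.06, and against cTh1 alone 22 (7.12% of all genes), with a median of -1.10. The size was thus nearly the same against a population labelled unstimulated as against a 5 day culture. Replication histones, listed as a sign of RNA quality, were also mostly thymic lower. Of 20 above the filter (26 measured) 15 were thymic lower and 0 higher, with a median of -0.59 over all 26. Compared with the array labelled naive alone their median was -0.22 with 2 of 20 at least 2-fold lower, and against cTh1 alone it was -0.98 with 12, unlike the near-equal values of the cell cycle list. The part of RNA quality in the cell cycle result was not tested.

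Mitosis genes had the largest gaps, and part of the DNA replication genes was not split. Plk1, the kinase that drives mitotic entry, was at 10.87 and 11.34 against 9.58 and 9.45. Tpx2, a spindle assembly factor, was at 9.75 and 10.12 against 8.41 and 8.10, the largest gap of the list at 1.34. Ccnb2, a mitotic cyclin, had the largest mean difference, -1.69, and Aurkb, the kinase of the chromosomal passenger complex, was at 10.42 and 11.45 against 9.34 and 9.17. In Plk1, Tpx2 and Aurkb the thymic arrays lay closer to each other than to either spleen-derived array. Mki67, the usual marker of cycling cells, was at 11.22 and 11.23 against 10.24 and 10.03. Replication genes that were thymic lower include Mcm3, at 10.12 and 9.74 against 9.06 and 9.05, Cdc6, the helicase loader, at 9.62 and 8.90 against 8.44 and 8.02, and Rrm2, a ribonucleotide reductase subunit, at 10.49 and 10.87 against 9.54 and 8.94. In 10 of the 33 thymic lower genes, Mcm3 and Cdc6 among them, the array labelled naive was above cTh1, and in 23 it was below. The helicase subunits Mcm2, Mcm4, Mcm5 and Mcm6 were not split, and their mean differences lay between -0.29 and -0.10. In Mcm2 the array labelled naive was highest at 11.16 and cTh1 lowest at 10.16, with 10.49 and 10.42 between them. Pcna, the replication clamp, was at 12.18, 12.02, 12.20 and 12.12 on the array labelled naive, cTh1, TT naive and nTh1. Among inhibitors of the cycle, Cdkn2c was also thymic lower, at 9.27 and 9.61 against 8.32 and 7.54, as was Gadd45b, a stress response gene, at 10.10 and 9.83 against 8.77 and 8.57. The p53 target Cdkn1a was at 7.77 and 12.13 against 6.63 and 7.39. In that list of CDK inhibitors and p53 targets 11 of 19 were thymic lower (29.1% of all genes) and 0 higher. The median was -0.22 against the array labelled naive alone and -0.67 against cTh1 alone.

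**Figure D2:**
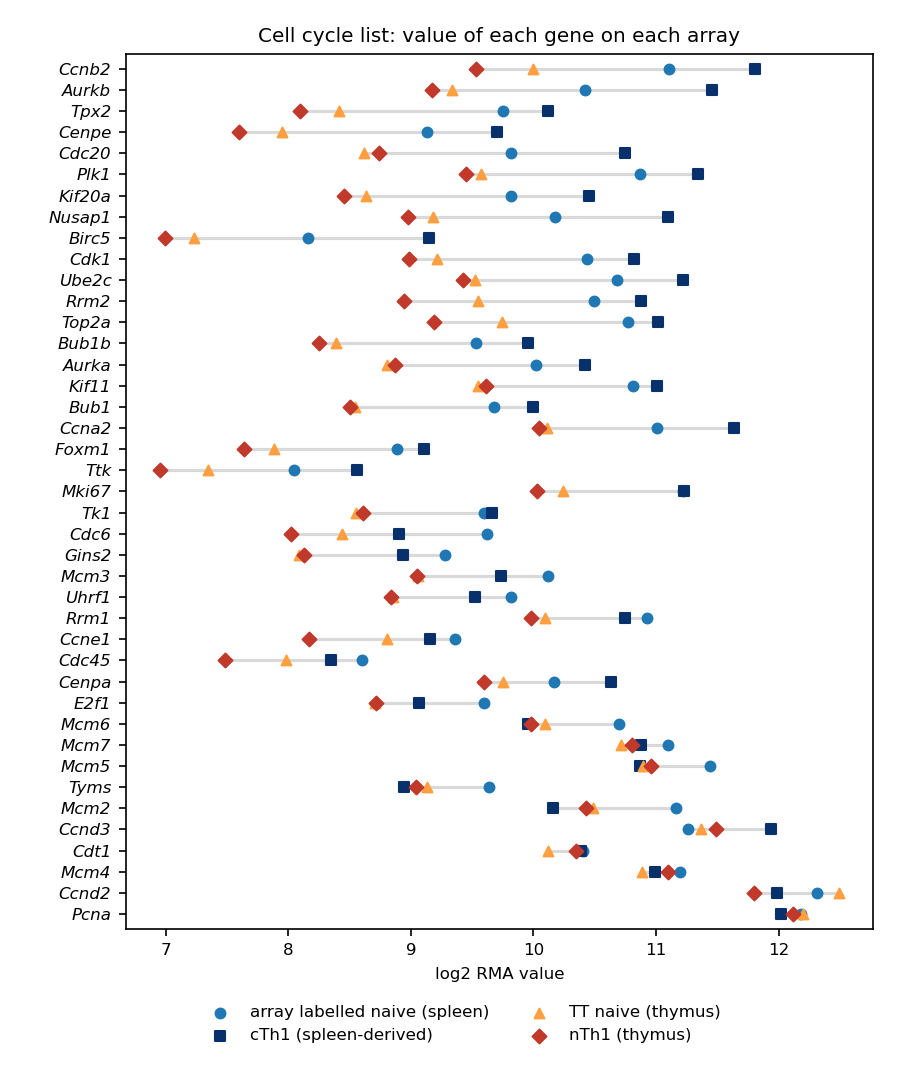
The log2 RMA values of the 41 cell cycle genes are plotted for the 4 arrays, ordered by mean difference, each point being 1 array. Both thymic arrays lie left of both spleen-derived arrays in 33 genes, and the points mix at the foot of the plot, where Mcm2, Mcm4, Mcm5, Mcm6 and Pcna stand.

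Promoters of 3 thymic lower genes of dividing cells are printed because such genes share 2 known elements, the CCAAT box, which binds NF-Y, and the CHR, which binds the MuvB complexes. The motifs searched were CCAAT and TTTGAA, on both strands and with overlap allowed, and matches are in capitals in the windows from 250 bases before to 50 bases after the RefSeq start (GRCm38.p6). Prr11 and Hmmr lie outside the list, and Hmmr was chosen after its values were seen, which were 8.08 and 8.66 against 6.66 and 6.66. Prr11, a gene expressed towards mitosis, was at 9.83 and 11.07 against 8.18 and 8.09.
Plk1 (chr7:122159185-122159484, + strand): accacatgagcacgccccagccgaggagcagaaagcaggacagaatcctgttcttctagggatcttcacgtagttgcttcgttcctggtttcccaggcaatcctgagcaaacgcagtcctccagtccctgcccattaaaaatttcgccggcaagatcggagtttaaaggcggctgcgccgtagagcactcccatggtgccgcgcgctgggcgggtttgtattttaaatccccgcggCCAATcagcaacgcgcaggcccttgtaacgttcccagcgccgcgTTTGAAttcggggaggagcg
Prr11 (chr11:87108665-87108964, - strand): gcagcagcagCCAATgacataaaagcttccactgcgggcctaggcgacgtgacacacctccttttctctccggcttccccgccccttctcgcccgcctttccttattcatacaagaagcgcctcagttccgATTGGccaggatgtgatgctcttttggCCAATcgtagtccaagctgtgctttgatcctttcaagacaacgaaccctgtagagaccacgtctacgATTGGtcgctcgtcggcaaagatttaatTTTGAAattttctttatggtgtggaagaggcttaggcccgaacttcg
Hmmr (chr11:40733388-40733687, - strand): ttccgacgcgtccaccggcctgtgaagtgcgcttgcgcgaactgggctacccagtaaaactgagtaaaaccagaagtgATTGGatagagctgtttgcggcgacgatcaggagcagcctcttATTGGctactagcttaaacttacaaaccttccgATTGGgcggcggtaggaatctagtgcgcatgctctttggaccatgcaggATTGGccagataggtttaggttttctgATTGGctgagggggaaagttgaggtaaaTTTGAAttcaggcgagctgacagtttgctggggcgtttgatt
Each window holds TTTGAA once, beyond the start site, and CCAAT was found 1 time in Plk1, 4 times in Prr11 and 5 times in Hmmr. Both motifs together were present in 13 of the 27 thymic lower cell cycle genes with a promoter entry (48.1%), in 1 of the other 6, and in 7.97% of all 27025 genes with an entry. A match is a description of the letters and not of binding.

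Th1 genes were the second group with large gaps. Of 23 measured members 11 were split, all thymic lower (29.1% of all genes), 10 of them at 2-fold or more (3.17% of all genes), and the list median was -1.33. Tbx21, which encodes the Th1 regulator T-bet, was at 9.81 and 11.25 against 7.11 and 7.92. Ifng, the defining Th1 cytokine, was at 8.80 and 11.19 against 5.88 and 7.34. Il18r1, the IL-18 receptor chain that binds the cytokine, was at 10.09 and 11.78 against 8.27 and 8.27, and Il12rb1, the shared chain of the IL-12 and IL-23 receptors, at 9.16 and 10.06 against 7.53 and 7.54. In both receptor genes the CXCR3+ and CXCR3- thymocytes were level. Members that nTh1 shares with the spleen-derived arrays were not split, namely Stat4, at 11.81 and 12.79 against 11.36 in TT naive and 12.88 in nTh1, and Nkg7, at 11.73 and 12.64 against 9.36 and 11.92. Eomes, the T-box factor of the series title, was at 10.03 and 7.94 against 8.84 and 10.68, so neither tissue stood apart. Against the array labelled naive alone 9 of 23 Th1 genes were at least 2-fold thymic lower (2.92% of all genes), and against cTh1 alone 16 (7.12%). The cytotoxic list had 8 of 14 thymic lower and 0 higher, with medians of -0.30 against the array labelled naive alone and -0.70 against cTh1 alone, and the CD8 marker Gzmk, which stood at 7.22 and 10.96 against 6.63 and 6.82, is among them.

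Memory-type surface and cytoskeletal genes were thymic lower in 14 of 26 (29.1% of all genes), at 2-fold or more in 12 (3.17%), with a median of -0.88. Plac8 was at 10.50 and 12.21 against 8.34 and 8.64, and Emp1, a membrane protein, at 9.35 and 10.43 against 6.65 and 7.79. Anxa2, an annexin that binds S100a10, was at 10.35 and 11.33 against 8.60 and 8.52. S100a11 was at 12.06 and 12.22 against 10.78 and 10.20, and S100a4 at 7.61 and 7.52 against 6.41 and 6.54. These members had spleen-derived values close to each other in S100a4, S100a6 and S100a11, and farther apart in Plac8. Itga4, the alpha chain of the integrin VLA-4, was the only thymic higher member, at 10.02 and 9.74 against 10.96 and 10.32. Cd44, the classical memory marker, was not split, with 8.75 and 8.69 against 7.44 in TT naive and 9.45 in nTh1. Compared with the array labelled naive alone 8 of 26 were at least 2-fold thymic lower (2.92% of all genes), and against cTh1 alone 14 (7.12%).

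Homing receptors as a group lay near the background in the share of split genes. Of 16 chemokine receptors above the filter (19 measured) 5 were thymic lower and 1 higher, where 29.1% and 17.7% of all genes were. Against the array labelled naive alone 6 of 16 were at least 2-fold thymic lower (2.92% of all genes). Relative to cTh1 alone 5 were lower and 2 higher (7.12% and 2.67% of all genes). Besides Cxcr6 and Ccr2, Ccr6 was at 6.48 and 8.32 against 5.94 and 5.95. Among integrins and homing genes 8 of 22 were thymic lower (36.4%) and 2 higher. At 2-fold, 2 were lower against the array labelled naive alone (2.92% of all genes) and 6 against cTh1 alone (7.12%). Itga2, the collagen-binding alpha chain, was at 8.52 and 9.22 against 7.04 and 6.57, a gap of 1.48, and its partner Itgb1 at 9.55 and 9.59 against 8.29 and 8.85. Fut7, the fucosyltransferase that builds selectin ligands, was at 7.04 and 6.94 against 6.31 and 6.10.

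Transcriptional clock genes held 3 gaps above 2-fold. Of 15 above the filter (17 measured) 6 were thymic lower and 1 higher, where 29.1% and 17.7% of all genes were, and 0.808% of all genes had such a gap. Compared with the array labelled naive alone 3 of 15 were at least 2-fold lower (2.92% of all genes), and against cTh1 alone 4 (7.12%). Npas2, a partner of BMAL1, was at 8.63 and 8.39 against 6.98 and 6.97. Rora, a nuclear receptor that also serves Th17 and innate lymphoid cells, was at 8.72 and 8.84 against 7.30 and 7.45, and Bhlhe40, a repressor induced by receptor stimulation, at 10.17 and 11.56 against 8.42 and 8.34. The core genes Arntl and Clock were not split, with mean differences of -0.00 and 0.17, and Per1 was at 11.24 and 10.68 against 10.60 and 11.52. The list median was -0.18.

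**Figure D3:**
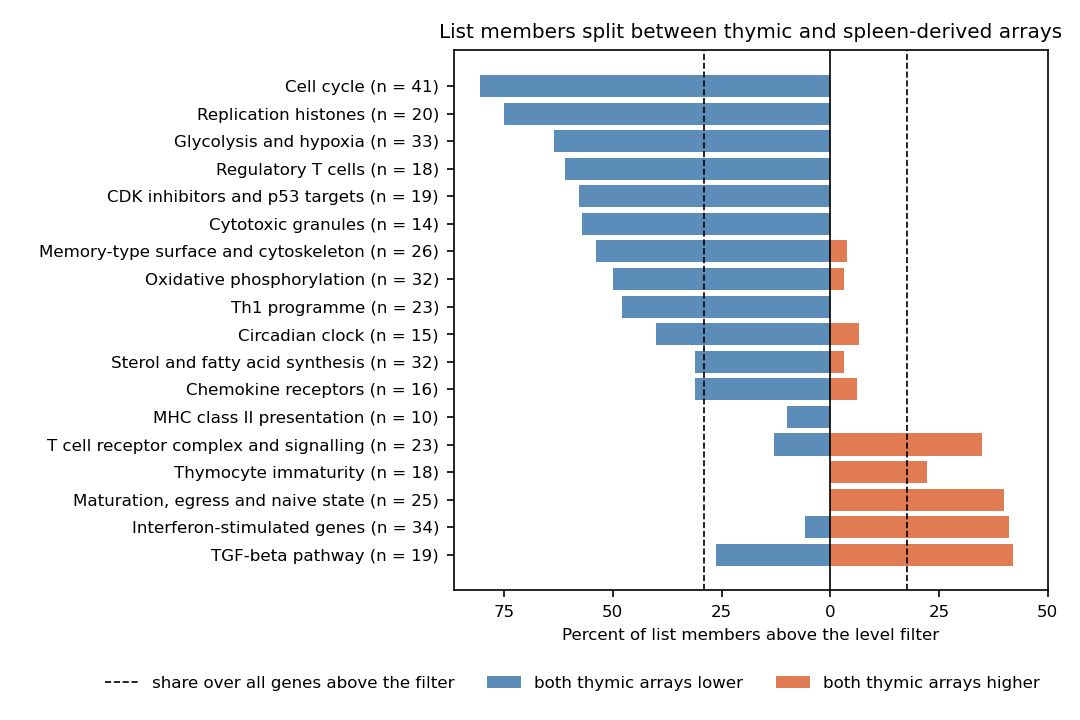
The share of members above the level filter with both thymic arrays lower (left) or higher (right) is plotted for 18 gene lists, with the number of members in brackets and the shares over all genes (29.1% and 17.7%) as dashed lines. The cell cycle list reaches furthest on the lower side, with 33 of 41 genes.

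Glycolysis and hypoxia genes were thymic lower in 21 of 33 (29.1% of all genes), with a median of -0.97, but the size differed between the spleen-derived arrays. Against cTh1 alone 24 of 33 were at least 2-fold thymic lower (7.12% of all genes) and the median was -1.65. Against the array labelled naive alone 3 were (2.92% of all genes) and the median was -0.23. Egln3, an oxygen sensor, was at 9.09 and 12.82 against 7.27 and 8.11. Ak4, a mitochondrial adenylate kinase, was at 7.59 and 10.81 against 6.31 and 6.59, and Aldoc at 7.43 and 11.67 against 7.32 and 7.08. Vegfa, the angiogenic factor, was at 7.84 and 10.33 against 6.97 and 6.95. Of the sterol and fatty acid genes 10 of 32 were thymic lower (31.2%, near the 29.1% of all genes) and 1 higher, with Cyp51 at 7.87 and 9.73 against 7.72 and 6.88. At 2-fold, 16 of 32 were thymic lower and 1 higher against cTh1 alone (7.12% and 2.67% of all genes). Against the array labelled naive alone 0 were lower and 1 higher (2.92% and 0.944% of all genes). Oxidative phosphorylation subunits were thymic lower in 16 of 32 (29.1% of all genes) and higher in 1, with a median of -0.25 and 0 at 2-fold. Their median was -0.33 against the array labelled naive alone and -0.12 against cTh1 alone.

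Regulatory T cell genes were thymic lower in 11 of 18 (29.1% of all genes) and higher in 0, with a median of -1.13. Il10 was at 5.41 and 8.28 against 4.77 and 4.92, Entpd1, an ectonucleotidase, at 8.38 and 9.79 against 6.70 and 7.75, and Tnfrsf9, a costimulatory receptor, at 10.42 and 11.38 against 9.93 and 8.55. Foxp3, which defines the lineage, was not split, with 8.82 and 9.21 against 9.87 in TT naive and 7.29 in nTh1. The 11 genes include several that activation also induces, among them Tnfrsf9 and Ctla4, and the list does not measure regulatory T cells alone. Against cTh1 alone the median was -1.61 and against the array labelled naive alone -0.57.

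**Figure D4:**
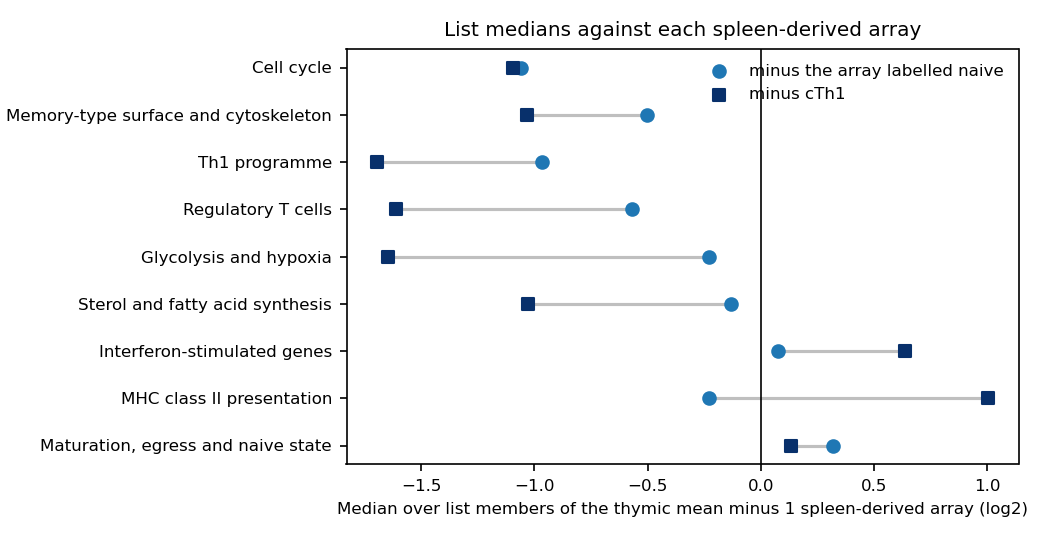
The median over list members of the thymic mean minus 1 spleen-derived array is plotted on the log2 scale for 9 lists, with circles for the array labelled naive and squares for cTh1. The symbols nearly coincide for the cell cycle list (-1.06 and -1.10), lie far apart for glycolysis and hypoxia (-0.23 and -1.65) and take opposite signs for MHC class II (-0.23 and 1.00).

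MHC class II genes, the targets of CIITA, did not separate the arrays labelled transgenic from those labelled wild type. Since the array labelled naive went against its label, its genotype, and with it this contrast, is uncertain. Of 10 measured members 0 were split with the thymic arrays higher and 1 with them lower, and the median was 0.41. H2-Aa, the alpha chain of I-A, was at 12.66 and 10.73 against 12.29 and 12.66. H2-Eb1, the beta chain of I-E, was at 12.49 and 10.53 against 11.93 and 12.53, and H2-Ab1 at 13.41 and 12.02 against 13.06 and 13.39. In all 3 genes the low array was cTh1, and the array labelled naive was within 0.56 of both thymic arrays. H2-Oa, a subunit of the DO protein that restrains peptide loading, was the thymic lower member, at 10.30 and 10.83 against 9.07 and 9.22. Ciita itself was at 7.59, 8.00, 7.28 and 7.72, and whether that probe set reads the transgene is unknown. Against cTh1 alone 5 of 10 were at least 2-fold thymic higher (2.67% of all genes) and the median was 1.00. Against the array labelled naive alone 0 were (0.944% of all genes) and 2 were thymic lower (2.92% of all genes), with a median of -0.23. Factors that bind class II promoters differed little, with 5 of 10 thymic higher and 1 lower (17.7% and 29.1% of all genes), and 0 at 2-fold. The promoters of H2-Aa and H2-Oa are printed to set a gene that followed cTh1 beside the one that was thymic lower, with CCAAT matches (the Y box of class II promoters) in capitals.
H2-Aa (chr17:34287774-34288073, - strand): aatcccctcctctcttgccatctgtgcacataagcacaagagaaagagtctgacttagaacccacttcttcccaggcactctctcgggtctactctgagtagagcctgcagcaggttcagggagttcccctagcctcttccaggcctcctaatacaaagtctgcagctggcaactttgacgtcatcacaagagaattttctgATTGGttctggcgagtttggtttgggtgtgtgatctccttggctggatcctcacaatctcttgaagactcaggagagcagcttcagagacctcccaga
H2-Oa (chr17:34092129-34092428, + strand): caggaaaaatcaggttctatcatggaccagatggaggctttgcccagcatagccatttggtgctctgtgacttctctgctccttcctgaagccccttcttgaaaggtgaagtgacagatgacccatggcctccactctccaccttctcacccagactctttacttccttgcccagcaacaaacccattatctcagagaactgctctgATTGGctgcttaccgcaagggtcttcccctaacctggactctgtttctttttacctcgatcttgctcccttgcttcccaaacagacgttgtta
Each window holds 1 match, as ATTGG on the strand shown, although the values of these genes differed in pattern. CCAAT was present in 8 of 8 class II list members with an entry and in 41.1% of all genes with an entry.

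Genes of maturation and the naive state were thymic higher in part, with small differences. The thymic higher share of thymocyte immaturity genes lay near that of all genes. In the maturation, egress and naive list 10 of 25 were thymic higher and 0 lower (17.7% and 29.1% of all genes), with a median of 0.23 and 1 member at 2-fold. Klf2, the factor that switches on egress receptors, was at 10.14 and 10.71 against 10.96 and 10.98, but its target S1pr1 was not split, at 10.91 and 11.36 against 11.18 and 10.71. Actn1, an actin crosslinker, was at 11.24 and 11.73 against 12.18 and 12.08, and Nsg2 at 9.75 and 9.18 against 10.16 and 10.28. Tmie was at 8.97 and 7.83 against 9.28 and 10.67. Compared with the array labelled naive alone 18 of 25 lay beyond it with the thymic arrays higher and 1 lower, and against cTh1 alone 11 higher and 7 lower. Under this looser rule, 3766 of all 13238 genes were higher and 6077 lower against the array labelled naive alone. Against cTh1 alone 4609 of all genes were higher and 5916 lower. Ccr7 and Il7r were not split, with mean differences of 0.29 and 0.00. With the arrays centred on all probe sets 7 of the list were thymic higher and 1 lower, where 1311 and 5872 of all genes were. Centred on named genes 13 of the list were higher and 0 lower, where 4340 and 2032 of all genes were. Of the immaturity genes above the filter 4 of 18 (20 measured) were thymic higher and 0 lower, where 17.7% and 29.1% of all genes were. Against the array labelled naive alone 7 were higher and 5 lower, and against cTh1 alone 13 and 3. These counts follow the looser rule, whose counts over all genes are given above. Cd69, which holds cells in the thymus, was at 11.50 and 10.89 against 11.79 and 11.95, and Arpp21, a gene of immature thymocytes, at 5.94 and 5.59 against 6.26 and 7.32. Cd24a, which falls as thymocytes mature, was not split, with 8.58 and 8.83 against 7.99 in TT naive and 10.18 in nTh1, and Sox4 was at 8.55 and 5.79 against 7.93 and 8.46. Bach2, a repressor that keeps T cells from effector fates, was at 10.29 and 10.71 against 11.06 and 11.44. Dtx1, a Notch target, was at 8.99 and 8.48 against 10.92 in TT naive and 9.17 in nTh1, so that its gap was 0.18.

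Signalling genes of the T cell receptor were thymic higher in 8 of 23 and lower in 3, where 17.7% and 29.1% of all genes were, with 0 at 2-fold. Their median was 0.15 against the array labelled naive alone and 0.07 against cTh1 alone. Lat, the adaptor that the receptor phosphorylates through ZAP-70, was at 12.57 and 12.51 against 12.84 and 12.95, while Zap70 was at 11.66 and 11.76 against 11.39 and 11.44. TGF-beta pathway genes went both ways, with 8 of 19 thymic higher and 5 lower, the latter near the background. Their median was -0.05 against the array labelled naive alone and 0.27 against cTh1 alone. Tgfbr2, the ligand-binding receptor, was at 10.90 and 10.95 against 11.16 and 11.26, and Smad7, the inhibitor of the pathway, at 10.92 and 10.18 against 11.18 and 11.56. Tgfb3, a ligand, was the member at 2-fold, at 8.38 and 8.64 against 8.08 and 6.81.

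Interferon-stimulated genes were thymic higher in 14 of 34 (17.7% of all genes) and lower in 2, with a median of 0.37, and 2 thymic higher members and 1 thymic lower one, Gbp3, reached 2-fold. Oas2, an antiviral oligoadenylate synthetase, was at 10.94 and 7.01 against 11.29 and 11.32. Mx2, an antiviral GTPase, was at 7.01 and 5.21 against 7.51 and 7.49, and Trim30a at 8.88 and 8.40 against 9.48 and 9.54. Against cTh1 alone 14 of 34 were at least 2-fold thymic higher (2.67% of all genes) and 3 lower (7.12%). Against the array labelled naive alone 0 were thymic higher (0.944%), with a median of 0.07. Gaps were under 2-fold in all 34. Centred on all probe sets, 6 were thymic higher and 2 lower, where 1311 and 5872 of all genes above the filter were.

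The largest thymic higher gaps lay mainly in noncoding transcripts. By RefSeq type, 11 of the 32 genes with a gap of 2-fold or more were protein coding and 10 were microRNA genes. The rest were 6 long noncoding RNAs, 2 small nucleolar RNAs, 2 transcribed pseudogenes and 1 of another kind. This grouping was chosen after the values were seen. Of the 107 thymic lower genes with such a gap 103 were protein coding, as were 12140 of all 13238 genes above the filter. The filter admits a gene that reaches the level on the thymic arrays alone. An alternative added after the data were seen required the mean over the 4 arrays to reach the level. It left 26 thymic higher and 103 thymic lower genes with such a gap. Phxr4, a noncoding gene, was at 8.73 and 8.58 on the spleen-derived arrays and at 11.08 in TT naive and 11.41 in nTh1. Ctse, the intracellular protease cathepsin E, was the protein coding gene with the largest gap, at 10.52 and 9.80 against 12.69 and 12.43. Slc16a5, of the monocarboxylate transporter family, was at 8.91 and 9.33 against 10.64 and 11.14. Kcnq1ot1, an imprinted antisense RNA, was at 7.95 and 7.52 against 9.25 and 9.04, and Rab7b, a GTPase of late endosomes, at 5.55 and 5.53 against 6.58 and 6.64. Olfr331, of the olfactory receptor family and uncertain for that reason, was at 6.51 and 5.92 against 7.64 and 7.97. Of 67 olfactory receptor genes above the filter 24 were thymic higher (35.8%) and 10 lower (14.9%), where 17.7% and 29.1% of all genes were.

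MicroRNA genes were thymic higher in 87 of 155 above the filter and lower in 27, where 17.7% and 29.1% of all genes were. At 2-fold 34 were higher and 0 lower (0.937% and 3.17% of all genes). Compared with the array labelled naive alone 32 of 155 were at least 2-fold higher and 2 lower (0.944% and 2.92% of all genes). Relative to cTh1 alone 36 were higher and 1 lower (2.67% and 7.12% of all genes). Over all 483 measured, 205 were thymic higher and 63 lower, with a median of 0.14. The probe sets read the gene in total RNA and do not tell a mature arm from its precursor. The mature sequences of 4 of the 10 with a gap of 2-fold or more are shown to identify them, with the seed (bases 2 to 8) in capitals.
miR-1955-5p: aGUCCCAGgaugcacugcagcuuuu
miR-701-5p: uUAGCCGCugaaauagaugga
miR-505-3p: cGUCAACAcuugcugguuuucu
miR-103-3p: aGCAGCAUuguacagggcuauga
RefSeq (GRCm38.p6) held mature entries for 7 of the 10 genes, with 12 sequences and 12 different seeds, so none of these shared a seed. Mir669a-3, Mir669k and Mir669m-1, whose names share a stem, had no entry, and their seeds were not compared. Mir505 was at 9.58 and 8.01 against 11.10 and 12.00. Mir1955 was at 4.86 and 5.04 against 7.24 and 7.35, Mir701 at 6.24 and 3.70 against 7.95 and 8.12, and Mir103-2, a microRNA found in most tissues, at 5.47 and 5.88 against 7.12 and 7.10. The thymic arrays lay closer together than the spleen-derived ones in Mir505, Mir1955, Mir701 and Mir103-2.

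Probe sets with no gene symbol moved the same way and further. Of 8617 above the level filter 4729 were thymic higher (54.9%) and 1041 lower (12.1%), 2363 and 95 of them at 2-fold or more (27.4% and 1.1%). Their median level was 7.37 and 7.26 against 7.83 and 8.06, and the median mean difference was 0.40. For protein coding genes it was -0.07, and for microRNA genes 0.32. Centring on all probe sets left 4111 unnamed probe sets thymic higher and 1583 lower, and centring on named genes 5526 and 557. The filter admits a probe set that reaches the level on the thymic arrays alone. Without it 7207 of all 16010 unnamed probe sets were thymic higher and 2032 lower, with a median of 0.20. The sources used here do not say what these probe sets read. The part of RNA or array quality in these values was not tested.

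**Figure D5:**
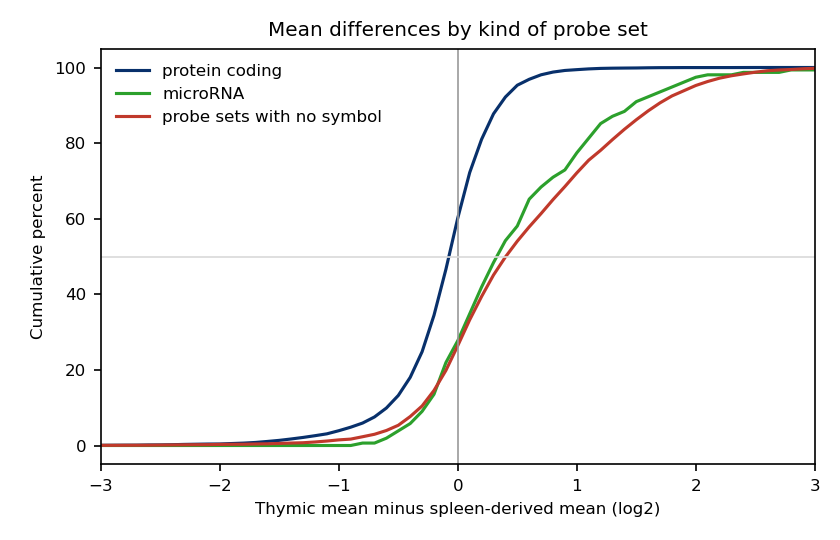
The cumulative percent of protein coding genes, microRNA genes and probe sets with no symbol is plotted against the mean difference on the log2 scale. The curves cross 50% at -0.07, 0.32 and 0.40, so the curves of the latter groups lie to the right of the protein coding one.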

How the data were processed

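Total RNA of 4 populations was measured on 1 Affymetrix array each. The deposited values are on the log2 scale, 1 per probe set, and the submitters' processing notes list RMA and Affymetrix Expression Console 1.3.1. The sources used here do not name the probe set level or annotation. All 4 columns matched a sample, and 0 stayed unmatched. Of 41345 probe sets, 23521 carried 1 gene symbol in the platform table, 1814 several and 16010 none. They gave 22180 genes, and where a gene had more than 1 probe set (1082 genes) the brightest on average was taken. A gene entered the counts when at least 1 array reached the median of all values, 6.608. Gene IDs of 13160 of the 13238 genes above that filter were found in a RefSeq table of GRCm38.p6, used for gene types, neighbours and sequences. The calls were run on simulated data in which all 4 arrays had the same gene mean and differences were planted equally on both thymic arrays. That run checks the code only, since the real arrays of a tissue are different populations.

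No test was made, since each population had 1 array. The comparison and the 54 gene lists were chosen with earlier results of these data known. Named genes were the 15 with the largest gap in each direction, the 8 largest mean differences without a split, the 4 largest split members of each list, all members of the class II, immaturity and maturation lists, and Cd4, Cxcr3 and Ciita. Predicted, small RNA and segment genes were passed over by rank. Other list members, microRNA genes, Zbtb16, Eif2s3y, Hmmr and the edge cases were added after their values were seen. Alternatives were other level filters, centring, removal of a loess trend (span 0.3), averaging the probe sets of a gene, a threshold of 3-fold, omission of each array and omission of markers of other cells. Python 3.11.15, numpy 2.4.6, pandas 2.3.3, statsmodels 0.14.6 and matplotlib 3.10.9 were used. The number of arrays limits the precision.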

Additional observations from a re-analysis of the deposited data

How the results depend on the processing

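No paired analysis was possible because each population has 1 array and the labels give no replicate numbers. Without 1 array at a time, which leaves 1 array on a side and so a looser rule, split genes ran from 3510 to 4609 thymic higher and from 5031 to 6077 thymic lower, those at 2-fold from 120 to 353 and from 384 to 943, and those with a gap of 2-fold from 48 to 242 and from 171 to 732. Without the array labelled naive, 394 of the 419 thymic lower and 116 of the 124 thymic higher genes stayed past 2-fold, and without cTh1 213 and 77. With no level filter 4065 split genes were thymic higher. With the filter at the 75th percentile 1470 were higher and 2180 lower, 75 higher at 2-fold and 19 with a gap of 2-fold. Centring on all probe sets gave 1311 split higher, 5872 lower and 79 higher at 2-fold. Centring on named genes, an alternative chosen after the data were seen, gave 4340 and 2032 split, and 56 higher and 65 lower with a gap of 2-fold. Removal of the loess trend gave 59 higher with such a gap, and a lower share of 46.2% among split genes. At 3-fold, 24 were higher and 122 lower in the mean, and 5 and 15 in the gap. The omission of markers of other cells and the mean of all probe sets kept all 6 counts within 1.5 times.

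Medians of 21 of the 54 lists changed sign when 1 array was left out, 6 of them from a median of over 0.319 in size, the SD between probe sets. Without cTh1, MHC class II went from 0.41 to -0.23, the gamma-chain receptor list from -0.43 to 0.13, B cell markers from -0.54 to 0.26 and immunoglobulin segments, a multigene family, from -0.54 to 0.71. Without the array labelled naive the innate-like list went from -0.40 to 0.29, and without nTh1 inhibitory receptors from -0.49 to 0.009. Over the omissions of each array these medians ran from -0.23 to 1.00 for MHC class II, from -0.66 to 0.13 for gamma-chain receptors, from -1.24 to 0.26 for B cell markers, from -1.61 to 0.71 for immunoglobulin segments, from -0.72 to 0.29 for the innate-like list and from -0.57 to 0.009 for inhibitory receptors. Among the smaller medians were thymocyte immaturity, which went from 0.32 to -0.05 without nTh1, and TGF-beta, from 0.22 to -0.05 without cTh1. Of the 232 named genes, 104 moved by more than 0.319 when either spleen-derived array was left out and 49 when either thymic one was, counts that are equal within a tissue by construction. A split gene cannot change sign when an array is left out. H2-Aa and Sox4, not split, changed sign without cTh1. Each value rests on 1 array, and low values near background limit the size of a difference.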

Other observations

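Some genes with the largest gaps are neighbours in the RefSeq order of protein coding genes, which was looked at after their values were seen. Ctse and Rab7b, both thymic higher, have 0 protein coding genes between them. Cxcr6 and Ccr2, both thymic lower, have 4 between them, and the receptors in that stretch were low on all arrays. Ccr1 and Ccr3 were not split, Ccr1l1 was thymic lower with a gap of 0.26, and all 3 were below the level filter, and Xcr1, also below the filter, was thymic higher at 5.86 and 6.15 on the array labelled naive and cTh1, against 6.47 and 6.40 in TT naive and nTh1. Ccr9, on the other side of Cxcr6, was at 8.84 and 6.43 against 7.39 and 7.60. Gabarapl1 and Klrk1, both thymic lower, have 2 between them.

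In the list of genes induced by recent signalling through the antigen receptor, 4 of 30 members were thymic higher and 6 lower, below the 17.7% and 29.1% of all genes. Fos, an early response gene, was at 9.21 and 9.02 against 9.62 and 9.67, while Ier3 was at 8.18 and 10.31 against 6.91 and 7.16 and Dusp4, a phosphatase of the ERK pathway, at 8.82 and 8.65 against 7.94 and 8.03. Xist was thymic higher by 0.57 in the mean, at 12.58 and 12.56 against 13.03 and 13.25.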
